A study of Mus musculus with 32 samples.

Results

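The 9 genes followed here belong to homologous recombination, the Fanconi anaemia pathway and the helicases that work beside them, and they were measured in mouse embryonic fibroblasts (MEFs): Brca1, Brca2, Rad51c, Rad54l, Fanca, Fancd2, Blm, Wrn and Pif1. They were chosen by name, as every probe set annotated to these 9 symbols or their older synonyms on 2 Affymetrix expression array types, here called array A and array B. The choice was made with earlier results of these data known, so counts of calls among the members are descriptive. That gave 24 probe sets for 9 of the 18193 genes named on both arrays, 16 on array A and 8 on array B. RNA came from early passage primary MEFs, which all groups share, and the groups were Oct-1 mutant irradiated, Oct-1 mutant unirradiated, wild type irradiated and wild type unirradiated. Each group had 4 replicates, each replicate was hybridised to both arrays, and the 32 samples are therefore 16 RNA extracts. Oct-1, the product of Pou2f1, is a transcription factor with a POU DNA-binding domain that recognises the octamer motif. The mutant allele, the radiation dose, the time after irradiation and the embryos or cultures behind the replicates stand as not given in the sources used here, so p-values measure only the spread between these samples.

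Homologous recombination repairs broken DNA by copying the sister chromatid, and so it works in S and G2 phase. Brca1 directs broken ends into this pathway, Brca2 and Rad51c act in the next step on the single-stranded DNA, and Rad54l drives strand exchange. The Fanconi pathway handles crosslinks between DNA strands: Fanca belongs to the core ubiquitin ligase complex, and Fancd2 is the protein that this complex modifies. Blm and Wrn are RecQ family helicases that unwind recombination intermediates, and Pif1 is a helicase that acts on G-quadruplex DNA and at telomeres. Many of these genes are transcribed mainly in cycling cells.

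Promoter sequences are shown first for the 3 members with a call in the tests below and an entry in the RefSeq promoter table for the build GRCm38.p6. That table held 8 promoters for 6 of the 9 members, each running from 250 bases before the transcription start to 50 after it. Capitals mark the CCAAT box, searched on both strands as CCAAT, in the promoters of Rad54l (chr4:116123641-116123940, minus strand), Fanca (chr8:123318527-123318826, minus strand) and Brca1 (chr11:101551906-101552205, minus strand), each written 5′ to 3′ along its gene.
Rad54l: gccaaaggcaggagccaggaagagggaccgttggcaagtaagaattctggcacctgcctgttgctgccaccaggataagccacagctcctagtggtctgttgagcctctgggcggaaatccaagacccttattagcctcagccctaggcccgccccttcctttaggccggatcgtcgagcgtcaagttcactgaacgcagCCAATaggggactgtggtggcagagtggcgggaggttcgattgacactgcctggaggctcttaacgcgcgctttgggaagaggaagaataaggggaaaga
Fanca: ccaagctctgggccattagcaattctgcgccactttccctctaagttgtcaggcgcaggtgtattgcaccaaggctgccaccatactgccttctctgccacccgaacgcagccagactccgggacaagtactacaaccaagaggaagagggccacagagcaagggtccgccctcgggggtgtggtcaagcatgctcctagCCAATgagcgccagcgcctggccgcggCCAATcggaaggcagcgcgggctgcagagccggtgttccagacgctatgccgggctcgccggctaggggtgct
Brca1: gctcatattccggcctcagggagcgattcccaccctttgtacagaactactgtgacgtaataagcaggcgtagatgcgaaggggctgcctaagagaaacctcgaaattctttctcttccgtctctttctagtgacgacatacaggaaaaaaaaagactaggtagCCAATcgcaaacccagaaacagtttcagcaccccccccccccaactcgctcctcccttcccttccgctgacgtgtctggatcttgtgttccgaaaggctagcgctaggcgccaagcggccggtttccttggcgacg
The match lay 50 bases before the start site in Rad54l, 86 before it in Brca1, and 50 and 23 before it in Fanca. CCAAT was present in 5 of the 8 member promoters, for 4 of the 6 members, Blm included, and in 37.4% of the 32851 promoters of the table. An E2F motif (TTTCCCGC, TTTCGCGC, TTTGCCGC or TTTGGCGC on either strand) was present in 3 of the 8, for Brca2 and Rad51c, and in 2.26% of all promoters. The octamer ATGCAAAT, the motif that Oct-1 binds, was in 0 of the 8 and in 1.74% of all promoters. The CHR element TTTGAA was in 0 of the 8 and in 17.9% of all. These searches cover 300 bases a gene and do not show whether a factor binds.

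Signals differed widely between the 24 probe sets. A probe set was tested when its mean over the 16 arrays of its type reached the 40th percentile, which was 4.97 on array A and 3.36 on array B on the log2 scale. By this filter 12 of the 24 passed, 6 on each array, for 8 genes: Pif1 and Fancd2 with 3 probe sets each, and Brca1, Brca2, Rad54l, Fanca, Blm and Wrn with 1 each. Both Rad51c probe sets fell below it, 1423026_at at 3.20 to 3.73 and 1438453_at at 2.60 to 2.86 over the 16 arrays. Fitted without the filter, their averaged irradiation differences were -0.07 (adjusted p = 0.787) and 0.02 (adjusted p = 0.922), so Rad51c showed no signal that could be followed. Of the 12 dim probe sets, 9 varied by less than 0.5 over all samples. Levels of different probe sets are not comparable, so each is compared only with itself between groups.

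Fibroblast identity was checked with a marker list. All 13 fibroblast markers measured passed the filter, at means of 7.07 to 14.76. Of other cell types, 0 of 4 endothelial and 0 of 4 skeletal muscle markers passed, 2 of 5 epithelial, 4 of 5 neural and 3 of 6 macrophage and blood markers did, and the leukocyte gene Ptprc lay at 1.89. Summed log2 levels of the fibroblast markers were 149.3 to 154.0 in Oct-1 mutant irradiated and 151.4 to 156.3 in Oct-1 mutant unirradiated samples, against 143.9 to 146.1 in wild type irradiated and 146.9 to 148.2 in wild type unirradiated samples. Neural markers summed to 28.4 to 29.6 and 28.2 to 29.2 in these mutant groups, against 29.9 to 31.6 and 29.6 to 31.0 in the wild type groups. Map2 carried much of the neural gap, whereas the fibroblast gap was spread over many markers. Map2 averaged 4.91 and 5.01 in irradiated and unirradiated mutant cells, against 6.13 and 6.25 in irradiated and unirradiated wild type cells, whereas Gfap averaged 6.04 and 6.01 against 5.98 and 6.00. Of the fibroblast markers, Dcn averaged 8.01 and 8.15 in the mutant groups against 6.24 and 5.89 in the wild type groups. Lum averaged 8.12 and 7.98 against 6.57 and 6.60, and Thy1 13.08 and 12.96 against 12.60 and 12.45. The remaining fibroblast markers were also higher in the mutant in both states, by less than Dcn and Lum. Only Vim was not, at 14.75 and 14.76 against 14.76 and 14.78. The annotation named 0 probe sets for Pou2f1, the gene of Oct-1, so the mutated gene itself was not analysed here.

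**Figure D1:**
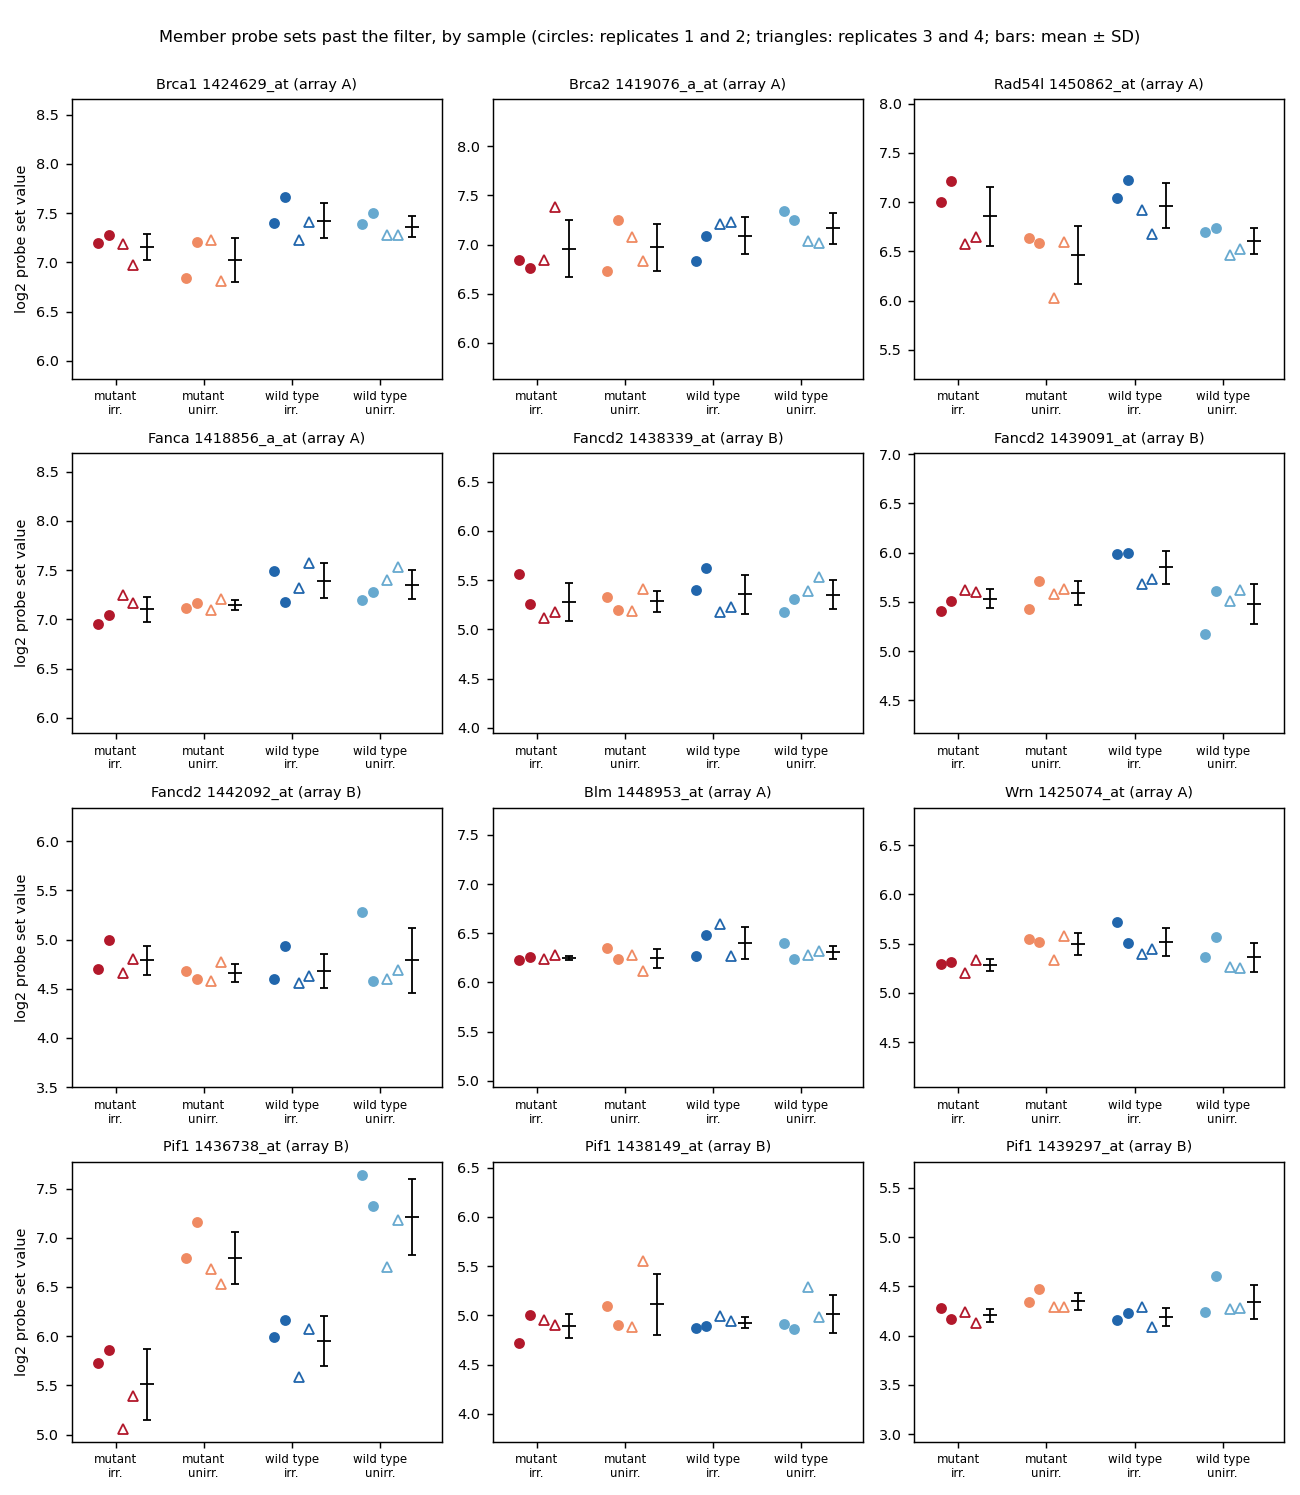
Log2 values (y axis) of the 12 member probe sets past the filter in the 4 groups (x axis), with circles for replicates 1 and 2, triangles for replicates 3 and 4, and bars for mean ± SD. Pif1 1436738_at is lower in every irradiated sample than in any unirradiated sample of its genotype, and the other panels vary over 1.20 or less.

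The first question was what irradiation did to these genes in each genotype. Pif1 fell and no other member was called within a genotype. In bulk RNA such as this, fewer cells of a type or cell cycle phase and less RNA per cell cannot be told apart. On array B its probe set 1436738_at fell 2.43-fold in Oct-1 mutant cells and 2.39-fold in wild type cells. Among the other member probe sets past the filter the log2 differences between irradiated and unirradiated cells ran no further than 0.40 in either genotype.

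In Oct-1 mutant cells, Pif1 1436738_at read 5.73, 5.86, 5.06 and 5.40 with irradiation, against 6.79, 7.16, 6.69 and 6.53 without. In wild type cells it read 5.99, 6.16, 5.59 and 6.07 with irradiation, against 7.64, 7.32, 6.70 and 7.18 without. All irradiated samples lay below all unirradiated samples of their genotype, and the groups did not overlap. The means were 5.51 ± 0.36 and 6.79 ± 0.27 in irradiated and unirradiated mutant cells, and 5.95 ± 0.25 and 7.21 ± 0.39 in irradiated and unirradiated wild type cells (SD, n = 4 each). The limma log2 difference was -1.28 in the mutant (SE 0.21, adjusted p = 0.00946) and -1.26 in the wild type (SE 0.21, adjusted p = 0.0109). Of the 12 tested member probe sets this was the 1 called in each genotype, where 2.67% of the 27083 probe sets tested were called for irradiation in the mutant and 2.31% in the wild type, 1.02% and 0.834% of them lower. Unadjusted p-values under 0.05 were reached by 3 of the 12 in each genotype, where 12.7% of all probe sets reached them in the mutant and 11.2% in the wild type. On array B only 6 probe sets had a more negative log2 difference than Pif1 in the mutant and only 4 in the wild type, as its rank was 7 and 5 of 13507.

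The fall of Pif1 did not differ detectably between genotypes: the mutant minus wild type difference of the irradiation effects was -0.02, with a 95% interval of -0.67 to 0.62. Averaged over genotypes, irradiation lowered Pif1 2.41-fold (log2 -1.27, SE 0.15, adjusted p = 0.000232 by limma). The replicates fall into 2 runs of title numbers, replicates 1 and 2 and replicates 3 and 4, and the averaged difference was -1.29 in the first run alone (adjusted p = 0.00526) and -1.25 in the second (adjusted p = 0.0419). Within single genotypes the first run gave -1.18 in the mutant (adjusted p = 0.0493) and -1.40 in the wild type (adjusted p = 0.0291). The second run, with 2 samples a group, gave -1.38 (adjusted p = 0.157) and -1.11 (adjusted p = 0.306), which missed the threshold.

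The other Pif1 probe sets moved little. Pif1 1438149_at averaged 4.89 ± 0.12 and 5.11 ± 0.31 in irradiated and unirradiated mutant cells, and 4.92 ± 0.05 and 5.01 ± 0.19 in irradiated and unirradiated wild type cells (SD, n = 4 each). Its averaged difference was -0.15 (95% interval -0.35 to 0.04, adjusted p = 0.648). Pif1 1439297_at averaged 4.20 ± 0.07 and 4.35 ± 0.09 in the mutant groups, and 4.19 ± 0.09 and 4.35 ± 0.17 in the wild type groups, irradiated before unirradiated (SD, n = 4 each). Its averaged difference was -0.15 as well (95% interval -0.27 to -0.03, unadjusted p = 0.0143, adjusted p = 0.257). All 3 probe sets thus had negative differences, but the large one was seen in 1436738_at alone, and which transcripts the 3 detect was not analysed here.

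**Figure D2:**
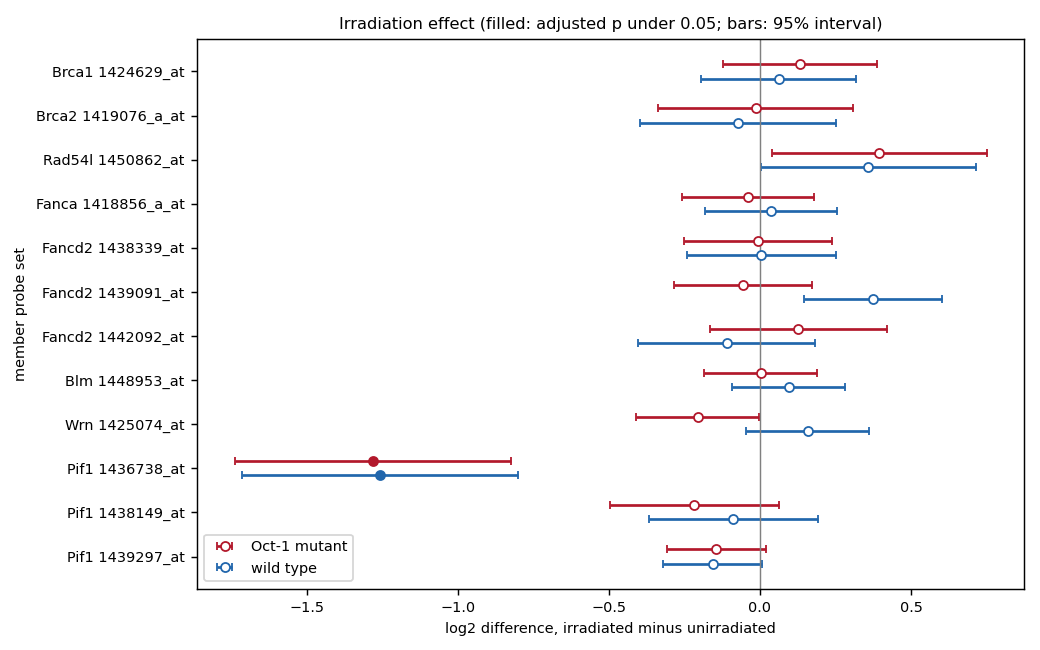
Log2 difference, irradiated minus unirradiated (x axis), of each member probe set past the filter (y axis) in Oct-1 mutant and wild type cells, with 95% intervals; filled points had an adjusted p under 0.05. Pif1 1436738_at lies at -1.28 in the mutant and -1.26 in the wild type, and all other points are open, between -0.22 and 0.40.

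Pif1 followed mitotic genes across samples. The 3 genes of array B most correlated with 1436738_at over its 16 arrays were the centrosomal kinase Nek2 (Pearson r = 0.96), the spindle checkpoint kinase Bub1b (0.96) and Gas2l3 (0.95). Those points share arrays and groups, so the correlations describe these samples only. Averaged over genotypes, the irradiation differences of the 3 were -0.96, -1.12 and -2.05. Genes picked by this correlation largely share the irradiation gap of Pif1, so these values are a description and no separate evidence. Of a 20-gene G2/M list, 19 genes passed the filter and 15 were called lower in irradiated cells, where 3.01% of all probe sets were. The list median was -0.78 against 0.01 over all probe sets tested. Of the 23 S phase genes 7 were called higher and 0 lower, where 4.5% of all probe sets were called higher. The S phase median was 0.21. Within the first and second number run the G2/M median was -0.77 and -0.88, and the S phase median 0.20 and 0.19.

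Rad54l, the motor protein of strand exchange, rose modestly with irradiation when both genotypes were averaged. In Oct-1 mutant cells Rad54l 1450862_at on array A read 7.00, 7.21, 6.57 and 6.64 with irradiation, against 6.64, 6.58, 6.02 and 6.60 without. In wild type cells the values were 7.04, 7.23, 6.92 and 6.67 with irradiation, against 6.70, 6.74, 6.46 and 6.53 without. The groups overlapped, yet each irradiated sample was above the unirradiated sample with the same replicate number in 4 of 4 pairs of both genotypes. The averaged log2 difference was 0.38, or 1.30-fold (SE 0.12, 95% interval 0.13 to 0.63, limma adjusted p = 0.0477). With Pif1 it made 2 called probe sets of 12 in the averaged comparison, 1 up and 1 down, where 7.51% of all probe sets were called, 4.5% up and 3.01% down.

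That call of Rad54l stood near the threshold. Within genotypes the difference was 0.40 in the mutant (adjusted p = 0.225) and 0.36 in the wild type (adjusted p = 0.324). With the replicate number as a block, which uses the pairs, the adjusted p was 0.0315 in the mutant, 0.0568 in the wild type and 0.00295 for the average. Under the block 7.15% of all probe sets were called in the mutant, 6.11% in the wild type and 14.9% on average. The averaged difference was 0.45 in the first number run (adjusted p = 0.0139) and 0.30 in the second (adjusted p = 0.190). Leaving out any 1 of 11 of the 16 extracts lost the averaged call, and it held only without replicates 3 or 4 of Oct-1 mutant irradiated, 1 or 4 of Oct-1 mutant unirradiated, or 4 of wild type irradiated (adjusted p 0.0319 to 0.093 over all 16). The other 3 Rad54l probe sets were below the filter and nearly flat: 1423123_at at 3.27 to 3.35, 1423124_x_at at 3.60 to 3.95 and 1453926_at at 2.07 to 2.22. The first 2 of these are annotated to the same sequence record as 1450862_at. Rad54l ran higher in the first number run than in the second, by 0.34 on average, beside the irradiation difference of 0.38. Its nearest genes over the 16 arrays were Commd1 (r = 0.92), Haus1 (0.92) and Nubp1 (0.91).

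**Figure D3:**
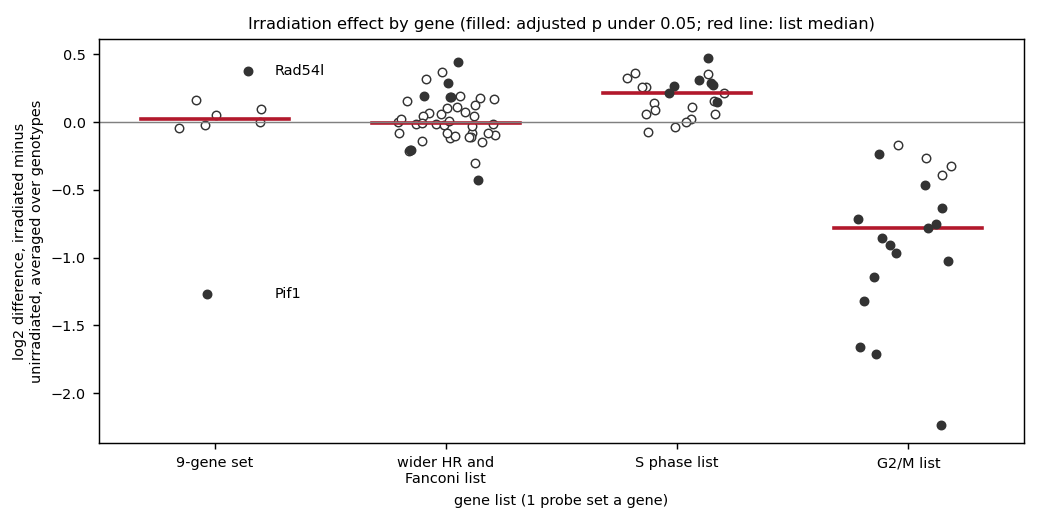
Log2 difference, irradiated minus unirradiated and averaged over genotypes (y axis), of 1 probe set a gene in 4 gene lists (x axis), with filled points for an adjusted p under 0.05 and a red line for each list's median. Among the 8 tested members Pif1 lies at -1.27, inside the range of the G2/M genes, whose median is -0.78, and Rad54l at 0.38 is above the S phase median of 0.21.

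Brca1, Brca2, Fanca and Blm gave no call for irradiation. The averaged difference was 0.10 for Brca1 1424629_at (95% interval -0.08 to 0.28), -0.04 for Brca2 1419076_a_at (-0.27 to 0.18), -0.00 for Fanca 1418856_a_at (-0.16 to 0.15) and 0.05 for Blm 1448953_at (-0.08 to 0.18). Changes inside these intervals cannot be told from none. Of the Brca1 probe sets below the filter, fitted by limma without it, 1424630_a_at gave an averaged difference of 0.51 (0.07 to 0.96, unadjusted p = 0.0249, adjusted p = 0.193). Brca1 1451417_at gave 0.45 (-0.02 to 0.93, unadjusted p = 0.0596, adjusted p = 0.328) and 1427698_at gave 0.06 (-0.03 to 0.15, adjusted p = 0.576). Over the 12 tested probe sets the averaged differences were negative for 7 and positive for 5, with a median of -0.00 against 0.01 over all probe sets.

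The second question was whether the response to irradiation differed by genotype. No member was called: limma called 0 of 12 at an adjusted p under 0.05, and 0.0% of all probe sets. At an unadjusted p under 0.05 there were 2 of the 12, Fancd2 1439091_at and Wrn 1425074_at, and 394 of all 27083 (1.45%). Fancd2 1439091_at on array B read 5.41, 5.51, 5.62 and 5.60 in irradiated mutant cells, against 5.42, 5.71, 5.58 and 5.63 in unirradiated mutant cells. In wild type cells it read 5.99, 6.00, 5.68 and 5.74 with irradiation, against 5.18, 5.61, 5.51 and 5.62 without. Irradiated wild type samples lay above unirradiated ones without overlap, and the mutant groups overlapped. The log2 difference was -0.06 in the mutant (adjusted p = 0.925) and 0.37 in the wild type (95% interval 0.15 to 0.60, adjusted p = 0.202), and the difference of these was -0.43 (unadjusted p = 0.0127, adjusted p = 0.999). It was -0.71 in the first number run and -0.15 in the second. Fancd2 1438339_at averaged 5.28 ± 0.20 and 5.28 ± 0.11 in irradiated and unirradiated mutant cells, and 5.36 ± 0.20 and 5.35 ± 0.15 in irradiated and unirradiated wild type cells (SD, n = 4 each). Fancd2 1442092_at averaged 4.79 ± 0.15 and 4.66 ± 0.09 in the mutant groups, and 4.68 ± 0.17 and 4.79 ± 0.33 in the wild type groups, irradiated before unirradiated (SD, n = 4 each). These other tested Fancd2 probe sets, 1438339_at and 1442092_at, had differences of irradiation effects of -0.01 and 0.24 with intervals that included 0. A further Fancd2 probe set, 1430916_at, was below the filter at 2.47 to 2.52.

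Wrn 1425074_at on array A showed the same arrangement of signs at low values. It read 5.29, 5.32, 5.20 and 5.34 in irradiated mutant cells, against 5.55, 5.51, 5.33 and 5.58 in unirradiated mutant cells. In wild type cells the values were 5.72, 5.51, 5.39 and 5.45 with irradiation, against 5.37, 5.56, 5.26 and 5.25 without. Each irradiated mutant sample was below its same-numbered unirradiated sample, although the groups overlapped, and 3 of 4 wild type pairs ran the other way. The log2 difference was -0.21 in the mutant (adjusted p = 0.277) and 0.16 in the wild type (adjusted p = 0.494). The difference of these was -0.36 (95% interval -0.65 to -0.07, unadjusted p = 0.017, adjusted p = 1), with -0.38 in the first number run and -0.35 in the second. The other Wrn probe sets were below the filter, 1425982_a_at at 3.82 to 4.15 and 1450163_a_at at 2.24 to 2.37.

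The third question was how mutant and wild type cells differed at a given irradiation state. Within a state, limma called 0 of 12 member probe sets among unirradiated cells (1 at an unadjusted p under 0.05) and 0 of 12 among irradiated cells (4 unadjusted), where 2.16% and 2.09% of all probe sets were called. Unadjusted p-values under 0.05 were reached by 11.2% of all probe sets among unirradiated cells and 11.9% among irradiated cells. Averaged over the states, Brca1 and Fanca were lower in the mutant. These were 2 of 12, both down, where 6.25% of all probe sets were called and 2.48% were called down. The fibroblast marker sums given above were higher and the neural sums, largely through Map2, lower in the mutant groups beside this difference, and their part in it was not tested.

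Brca1 1424629_at on array A read 7.19, 7.28, 7.18 and 6.97 in irradiated mutant cells, against 7.40, 7.66, 7.23 and 7.41 in irradiated wild type cells. Unirradiated mutant cells had 6.84, 7.20, 7.23 and 6.81, against 7.38, 7.50, 7.28 and 7.28 in unirradiated wild type cells. Unirradiated mutant samples all lay below unirradiated wild type samples, the irradiated groups overlapped, and the mutant was lower in 4 of 4 same-numbered pairs in both states. Averaged over irradiation the log2 difference was -0.30, or 1.23-fold lower in the mutant (SE 0.08, 95% interval -0.48 to -0.12, adjusted p = 0.0312). It was -0.34 in unirradiated cells (adjusted p = 0.161, 0.0355 with the replicate block, under which 6.42% of all probe sets were called) and -0.27 in irradiated cells (adjusted p = 0.313). Within the first and second number run the averaged difference was -0.36 (adjusted p = 0.0759) and -0.25 (adjusted p = 0.175). Leaving out any 1 of 6 extracts lost the call, with adjusted p 0.0217 to 0.0694 over all 16. These 6 were Oct-1 mutant irradiated replicate 4, Oct-1 mutant unirradiated replicates 1 and 4, wild type irradiated replicate 2, and wild type unirradiated replicates 1 and 2.

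The other 3 Brca1 probe sets lay below the filter. Brca1 1427698_at stayed between 1.95 and 2.34 in all samples. Brca1 1424630_a_at read 5.05, 4.70, 4.25 and 4.25 in irradiated mutant cells, against 4.09, 3.92, 3.38 and 3.77 in unirradiated mutant cells. In wild type cells it read 5.04, 4.78, 4.07 and 3.97 with irradiation, against 4.63, 4.70, 3.47 and 4.01 without. The mutant groups did not overlap, the wild type groups did, and replicates 1 and 2 were higher than 3 and 4 in each group. Fitted without the filter, irradiation gave 0.77 in the mutant (unadjusted p = 0.019, adjusted p = 0.264) and an average of 0.51 (adjusted p = 0.193), and the number runs differed by 0.72. Brca1 1451417_at gave an average of 0.45 (adjusted p = 0.328) and a difference of 0.72 between the runs. Neither showed the genotype difference past the threshold, at -0.16 (adjusted p = 0.852) and -0.15 (adjusted p = 0.874).

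**Figure D4:**
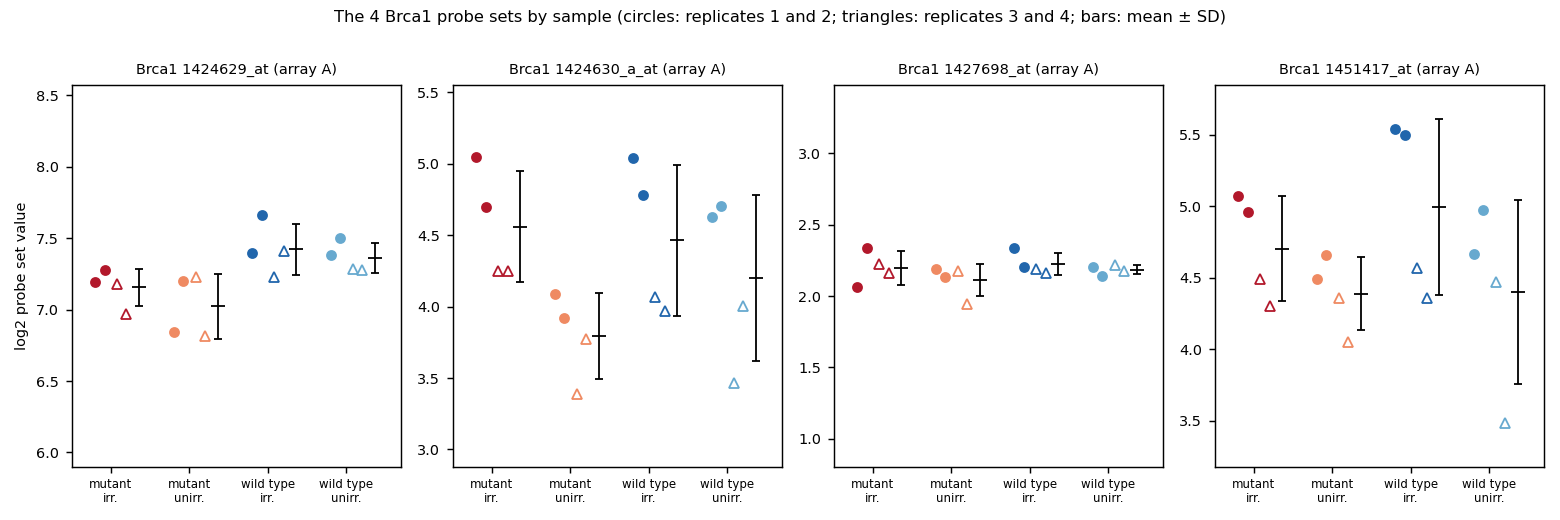
Log2 values (y axis) of the 4 Brca1 probe sets in the 4 groups (x axis), with circles for replicates 1 and 2, triangles for replicates 3 and 4, and bars for mean ± SD. The mutant groups of 1424629_at average 7.16 and 7.02 against 7.42 and 7.36 in wild type, and in 1424630_a_at and 1451417_at replicates 1 and 2 lie above 3 and 4.

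Fanca 1418856_a_at on array A read 6.96, 7.05, 7.24 and 7.17 in irradiated mutant cells, against 7.49, 7.18, 7.32 and 7.57 in irradiated wild type cells. Unirradiated mutant cells had 7.11, 7.17, 7.09 and 7.20, against 7.20, 7.28, 7.40 and 7.54 in unirradiated wild type cells. These groups overlapped, and the mutant was lower in 4 of 4 same-numbered pairs in both states. The averaged difference was -0.25, or 1.19-fold lower in the mutant (SE 0.07, 95% interval -0.40 to -0.09, adjusted p = 0.0396). Single states gave -0.29 in irradiated cells (adjusted p = 0.168) and -0.21 in unirradiated cells (adjusted p = 0.374). Within the first and second number run the averaged difference was -0.22 (adjusted p = 0.234) and -0.28 (adjusted p = 0.0701). The call was lost without any 1 of 11 extracts and held only without Oct-1 mutant irradiated replicate 3, wild type irradiated replicates 2 or 3, or wild type unirradiated replicates 1 or 2 (adjusted p 0.0194 to 0.0789 over all 16). The second Fanca probe set, 1452513_a_at, was below the filter and stayed between 4.10 and 4.30.

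Pif1 1436738_at was also lower in the mutant without passing the main test. The averaged difference was -0.43 (SE 0.15, adjusted p = 0.208), and the mutant was lower in 4 of 4 same-numbered pairs in both states. With the replicate block it passed (adjusted p = 0.0158), which made 3 called member probe sets of 12, where 13.9% of all probe sets were called. Its difference was -0.39 in the first number run (adjusted p = 0.0958) and -0.47 in the second (adjusted p = 0.372).

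The remaining members had no call for genotype. Brca2 1419076_a_at read 6.84, 6.76, 6.84 and 7.39 in irradiated mutant cells, against 6.83, 7.09, 7.21 and 7.23 in irradiated wild type cells. Unirradiated mutant cells had 6.73, 7.25, 7.08 and 6.84, against 7.34, 7.25, 7.04 and 7.02 in unirradiated wild type cells. These groups overlapped, and the averaged difference was -0.16 (95% interval -0.39 to 0.07, adjusted p = 0.411). Blm 1448953_at read 6.23, 6.26, 6.24 and 6.28 in irradiated mutant cells, against 6.27, 6.48, 6.59 and 6.27 in irradiated wild type cells. Unirradiated mutant cells had 6.35, 6.24, 6.28 and 6.12, against 6.40, 6.24, 6.27 and 6.32 in unirradiated wild type cells. Blm groups overlapped too, with an averaged difference of -0.11 (95% interval -0.24 to 0.03, adjusted p = 0.340). In irradiated cells Fancd2 1439091_at and Wrn 1425074_at were lower in the mutant without overlap, by log2 differences of -0.32 (adjusted p = 0.336) and -0.23 (adjusted p = 0.264). Both were among the 4 with an unadjusted p under 0.05 there, which 11.9% of all probe sets reached. Over the 12 probe sets the averaged genotype difference was negative for 10 and positive for 2, with a median of -0.10 against 0.01 over all probe sets tested.

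**Figure D5:**
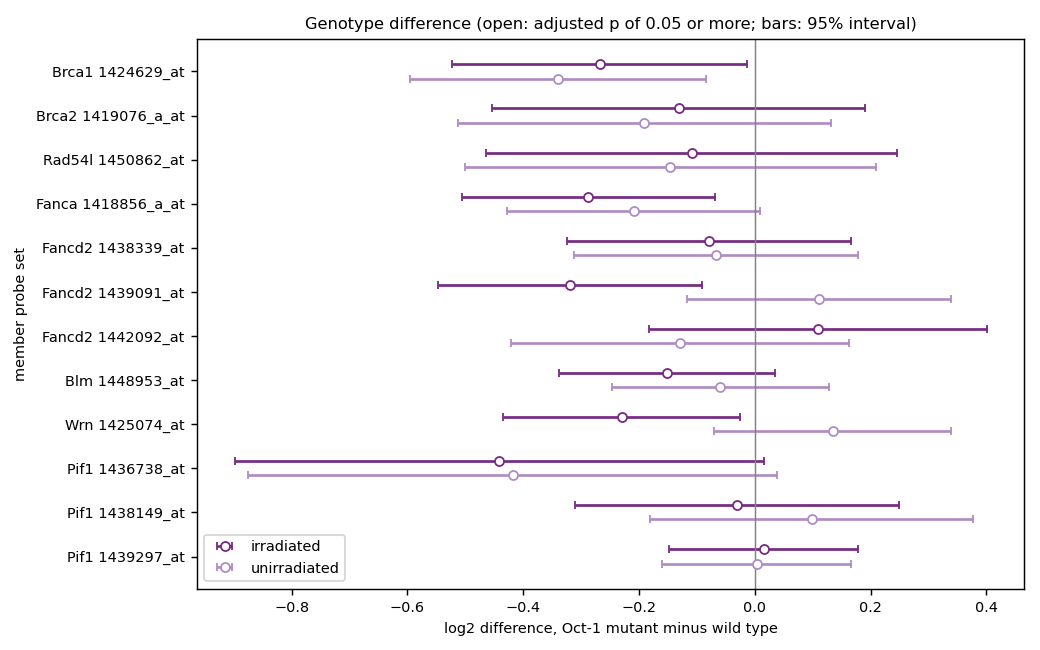
Log2 difference, Oct-1 mutant minus wild type (x axis), of each member probe set past the filter (y axis) in irradiated and unirradiated cells, with 95% intervals. All points are open since no adjusted p was under 0.05 within a state, and Brca1 lies at -0.27 and -0.34 and Fanca at -0.29 and -0.21, irradiated and unirradiated.

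The nearest genes of each member by correlation over samples are given as a description. Brca1 1424629_at was nearest to the licensing factor Cdt1 (r = 0.88), the glutathione reductase Gsr (0.87) and the single-strand binding subunit Rpa1 (0.87) over the 16 arrays of array A. Fanca 1418856_a_at was nearest to P2rx5 (0.86), Nnmt (0.85) and Donson (0.85). For Brca2, Fancd2, Blm and Wrn the nearest genes reached 0.74 (Timm10), 0.84 (Rps3), 0.84 (Cycs) and 0.78 (Ppp2r5c). These correlations are picked from all genes of an array and carry no test.

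A wider list of 53 homologous recombination and Fanconi genes, without the 9 members, was read beside them. Of these, 49 were named by the annotation, 44 passed the filter, and the genes without a named probe set were not analysed here. Averaged over genotypes, 4 of the 44 were called higher with irradiation and 2 lower. Of all probe sets 4.5% were called higher and 3.01% lower. The list median was -0.00 against 0.01 over all probe sets. Rad51d, a gene of homologous recombination, rose by 0.44 (SE 0.09, adjusted p = 0.00302), averaging 6.97 and 6.45 in irradiated and unirradiated mutant cells, and 6.82 and 6.46 in irradiated and unirradiated wild type cells. Usp1, the enzyme that removes ubiquitin from Fancd2, fell by 0.43 (SE 0.09, adjusted p = 0.0053), averaging 10.22 and 10.72 in the mutant and 10.41 and 10.77 in the wild type, irradiated before unirradiated. Both calls held without any 1 of the 16 extracts and in each number run alone.

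The other 4 calls were smaller and each was lost without any 1 of 7 to 10 extracts. Rad50, part of the complex that senses broken ends, rose by 0.29 (adjusted p = 0.0357), the Brca1-A complex gene Babam1 by 0.18 (adjusted p = 0.0315) and the core complex gene Fancg by 0.19 (adjusted p = 0.0386). Nbn, the partner of Rad50, fell by 0.21 (adjusted p = 0.0313). The calls of Nbn, Babam1 and Fancg were also lost in each number run alone and without the filter. That of Rad50 was lost in the second run alone, without the filter and with quantile normalization. With the replicate block the counts were 6 up and 5 down, where 14.9% of all probe sets were called. Within the mutant Rad51d rose by 0.52 (adjusted p = 0.0208) and Usp1 fell by 0.50 (adjusted p = 0.0341), where 2.67% of all probe sets were called. These 2 calls were each lost without any 1 of 4 or 6 extracts. Both were also lost in the second number run alone, and that of Usp1 without the filter. The block gave 2 up and 2 down in the mutant, where 7.15% of all were called. In the wild type limma called 0 of 44 (8 at an unadjusted p under 0.05, which 11.2% of all probe sets reached), where 2.31% of all probe sets were called, and the block gave 2 up and 1 down, where 6.11% were.

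Between genotypes, 3 of 44 genes of the wider list were called averaged over irradiation, a share near the 6.25% of all probe sets called, and the 3 were lower in the mutant. They were Rpa3 (-0.36, SE 0.09, adjusted p = 0.0115) and Rpa1 (-0.16, SE 0.05, adjusted p = 0.0479), subunits of the complex that coats single-stranded DNA, and Ube2t (-0.29, SE 0.08, adjusted p = 0.0281), the conjugating enzyme of the Fanconi core complex. Rpa3 averaged 8.75 and 8.79 in irradiated and unirradiated mutant cells, against 9.17 and 9.09 in irradiated and unirradiated wild type cells. The call of Rpa3 held without any 1 of 16 extracts, that of Ube2t was lost for 7 and that of Rpa1 for 12. Rpa3 also kept its call in each number run alone, and Ube2t lost it in the first. Rpa1 lost its call in each run alone, without the filter and without the intensity trend. The nuclease gene Dna2 was lower in irradiated mutant cells, at 6.29, 5.94, 5.46 and 5.96, against 6.61, 6.74, 6.41 and 6.65 in irradiated wild type cells. Those Dna2 groups did not overlap (-0.69, SE 0.17, adjusted p = 0.0372), and the call was lost without any 1 of 6 extracts. It was also lost in the first number run alone and without the filter. Dna2 was the 1 called gene of 44 in that comparison, where 2.09% of all probe sets were called. Among unirradiated cells limma called 0 of 44 (2 at an unadjusted p under 0.05, which 11.2% of all probe sets reached). For the difference of irradiation effects it called 0 of 44 (1 at an unadjusted p under 0.05, which 1.45% of all reached). With the block 5 were called on average, where 13.9% of all probe sets were, 4 in irradiated cells, where 6.02% were, and 1 in unirradiated cells, where 6.42% were. The median of the list was -0.04 averaged over irradiation, and that of the 8 tested members, with 1 probe set a gene, was -0.14, against 0.01 over all probe sets. The S phase list had a median of -0.13 with 1 of 23 genes called, Mcm3 at -0.30, and the G2/M list a median of -0.11 with 1 of 19 called, Kif23 at -0.57. With the replicate block 10 S phase and 3 G2/M genes were called lower in the mutant. The part of cell cycle state in the members' genotype differences was not tested.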

How the data were processed

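Expression was measured in 32 samples, 16 RNA extracts on both array types. The values used are log2 probe set values as deposited by the authors. The log base was read from their range (0.265 to 15.75 for A, 0.0973 to 15.51 for B), since neither it nor the summary method was stated. The median of each array was 6.16 to 6.28 on A and 3.67 to 3.78 on B, so no further scaling was applied. Arrays A and B held 22690 and 22575 probe sets. Of these 64 on each were controls and were left out, and 13576 and 13507 passed the filter. Annotation gave 1 gene to 20380 and 14661 probe sets, several to 691 and 245, and none to the rest, and only probe sets with 1 gene were named. The replicate number missing from 1 mutant unirradiated label on array A was set to 1.

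A linear model with a mean for each of the 4 groups was fitted to either array type on its own (limma 3.58.1, R 4.3.3), with variances moderated along intensity, and the script was tested on simulated data. P-values were adjusted by Benjamini-Hochberg over all probe sets of an array type that passed the filter, and a call is an adjusted p under 0.05. Tables and figures used Python 3.11.15, numpy 2.4.6, pandas 2.3.3 and matplotlib 3.10.9. The members and the gene lists were chosen with earlier results of these data known. By rule every member probe set is named, with called genes of the wider list, and a list gene is represented by its brightest probe set past the filter, array A first. Where groups are said not to overlap, the share of all probe sets without overlap is not given here.

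Replicate numbers come from the labels. Same-numbered samples deviated from their group means together, with a correlation of 0.32 to 0.72 (array A, median 0.58) or 0.24 to 0.60 (array B, median 0.44). The numbers were taken as pairs, although no label states that same-numbered samples of different groups belong together. Where same-numbered pairs are counted, the share of all probe sets reaching such counts is not given here. For different numbers within a run the correlation was 0.24 to 0.71 (A, median 0.56) or 0.19 to 0.58 (B, median 0.40). A shared number thus added little to a shared run. Across runs the correlation was -0.71 to -0.27 (A) or -0.59 to -0.18 (B). Deviations sum to 0 within a group, so positive values within runs force negative ones across runs. Alternatives were a replicate block, a number run block, each run alone, no filter, the 60th percentile as filter, quantile normalization, no intensity trend, and each extract left out in turn.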

Additional observations from a re-analysis of the deposited data

Results flagged for a closer look

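In 4 of the 48 sets of 4 replicates of member probe sets, 1 sample stood far from the other 3, by Dixon's test at the 95% level; chance gives about 1 set in 20. Brca2 1419076_a_at was 7.39 in Oct-1 mutant irradiated replicate 4 (others 6.76 to 6.84). Rad54l 1450862_at was 6.02 in Oct-1 mutant unirradiated replicate 3 (others 6.58 to 6.64), and without that extract the averaged irradiation call of Rad54l was lost. Fancd2 1442092_at was 5.28 in wild type unirradiated replicate 1 (others 4.58 to 4.69), and Pif1 1439297_at was 4.60 in wild type unirradiated replicate 2 (others 4.24 to 4.28).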

How the results depend on the processing

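Of the alternative fits of single member probe sets, 1931 gave the same call, 5 added one and 38 lost one, and none turned the direction of a called value. The replicate block and the number run block each gave 2 called member probe sets for irradiation in the mutant, against 1, and the replicate block 1 for genotype in unirradiated cells, against 0. The replicate block changed no member call beyond these and that of Pif1 for genotype. The second number run alone gave 0 for irradiation in the mutant, 0 in the wild type and 1 of 2 for the average, and both runs alone gave 0 of 2 for the averaged genotype difference. With no filter and with the stricter filter the count was 1, against 2, for averaged irradiation. For averaged genotype, no filter and quantile normalization gave 1 and the stricter filter, which drops all 6 array A probe sets of the members, gave 0. Leaving out single extracts gave 1 to 2 calls for averaged irradiation and 0 to 2 for averaged genotype, and main counts in the other 5 comparisons. Without the filter the adjusted p was 0.0764 for Rad54l and 0.0598 for Fanca, and with quantile normalization 0.0719 for Fanca; the cause was not tested. Over all probe sets the replicate block gave 4040 calls, against 2034, for averaged irradiation and 3768, against 1694, for averaged genotype. The same alternatives were run for the named genes of the wider list, a choice made after seeing the data, and none turned their direction. The 4 arrays a group limit the precision, and the 12 dim member probe sets carry no test in the main setting.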
